A study of Drosophila melanogaster with 12 samples.

Results

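The data describe what a middle dose of 20-hydroxyecdysone (20E), the active insect moulting hormone, did to RNA levels in cultured wing discs. They compare the 3 libraries at 200 nM 20E with the 3 libraries at 0 nM. Genes were taken in when 3 or more of these 6 libraries reached a normalised count of 10, which kept 8133 of the 12216 genes in the deposited table. All groups were wildtype (w1118) Drosophila melanogaster larvae raised at 25°C, and their wing imaginal discs were taken out 24 h into the third larval instar. The discs were then cultured for 2.5 h in Dye medium, without 20E or with 200 nM of it. The series also held 3 libraries each at 20 and 2000 nM, 12 in all, and these enter here for the estimate of the spread and as neighbouring doses. The labels do not say whether the libraries of a dose came from separate cultures or animals, so p-values measure the spread between these libraries, which may be technical. A whole cultured disc holds the epithelium, the muscle precursors beneath it and some trachea, and a lower level of a gene may come from fewer cells of one kind or from less RNA per cell, which cannot be told apart here.

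Wing imaginal discs are the larval sacs of epithelium that grow during larval life and form the adult wing and part of the thorax at metamorphosis. Ecdysone acts through a heterodimer of the nuclear receptors EcR and Usp, which binds DNA and, with hormone, activates a first set of genes, many of them transcription factors. These early factors in turn switch later genes on and off, so the response has layers in time. In discs, pulses of the hormone are known to accompany the end of growth, the start of sensory organ and vein differentiation, the secretion of cuticle and the change of shape called eversion. The series' title asks how the receptor's effect on proliferation depends on the level of its ligand.

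Reads per library numbered 11490448, 14369671 and 24596727 without hormone, and 9910007, 10097976 and 15364096 with 200 nM 20E, so a single read was worth 0.632 to 1.57 normalised counts. Replicates correlated at 0.987 to 0.989 within 0 nM and 0.988 to 0.992 within 200 nM across genes on the log2 scale, and libraries of the different doses at 0.956 to 0.966, where genes are not independent replicates. The tissue label could be checked against 15 wing disc markers, all above 10 normalised counts in both groups, with a summed level of 66135 to 74912 at 0 nM and 81142 to 89792 at 200 nM. Some genes stood apart in single 0 nM libraries. The summed level of 11 fat body markers was 857, 185 and 2580 in the 3 libraries at 0 nM and 185 to 469.6 at 200 nM. The small heat shock genes were high in 0 nM replicate 2, for example Hsp26 at 732, 2397 and 324 normalised counts. Both are taken up again below. At 200 nM, replicate 2 stood highest for some genes, such as ImpL2 at 441, 1151 and 568 and Ldh at 697, 1595 and 831. Each count of genes was also made without each library in turn.

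Of the 8133 genes tested, 823 (10.1%) rose and 883 (10.9%) fell at 200 nM against 0 nM, at an adjusted p under 0.05 by limma's moderated test with Benjamini-Hochberg adjustment over all of them. The remaining 6427 were not called. The median log2 fold change over all tested genes was 0.000449 and the median standard error (SE) was 0.106. Rises reached further than falls. Among the called genes, 265 rose and 204 fell at least 2-fold, 57 rose and 23 fell at least 8-fold, and 17 rose and 3 fell at least 32-fold. Many changes were small, with 366 rises and 416 falls under 0.5 log2 units. All 3 libraries at 200 nM lay above all 3 at 0 nM for 1400 genes (17.2%) and below them for 1460 (18%), and the called genes met this in 815 of 823 rises and 869 of 883 falls. Of the 40 genes that reached the minimum only through the 200 nM libraries 37 rose, and of the 33 that reached it only through the 0 nM libraries 21 fell, which the filter favours. The other 8060 held 786 rises and 862 falls. Just inside the filter, 106 genes had a third-highest value of 10 to 11, and 92 just outside it had 9 to 10.

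Genes that rose took 6.85% to 7.45% of all normalised counts in the 0 nM libraries and 12.2% to 12.6% at 200 nM. Genes that fell took 12.8% to 13.4% at 0 nM and 8.37% to 9.12% at 200 nM. With the tested genes split by mean level into 3 classes of 2711, 181 rose and 221 fell in the low class, 286 and 296 in the middle class, and 356 and 366 in the high class. The median SE was 0.244, 0.094 and 0.0793 in these classes, so a change had to be larger to be called among the weakly expressed genes.

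**Figure D1:**
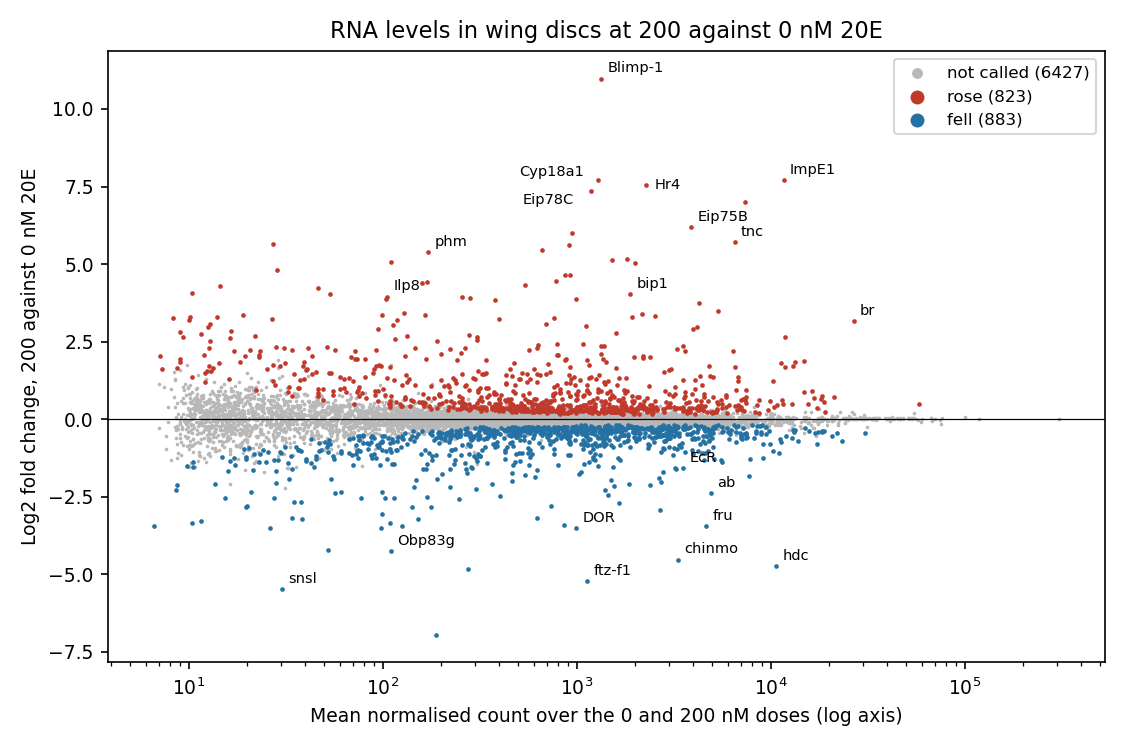
Each point is 1 of 8133 tested genes, with the mean normalised count over the 0 and 200 nM doses on a log axis and the log2 fold change of 200 against 0 nM on the vertical axis; 823 genes rose (red), 883 fell (blue) and 6427 were not called (grey). The rises reach 10.98 log2 units, at Blimp-1, and the falls include ftz-f1, hdc and chinmo.

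The receptor's own gene fell. EcR (FBgn0000546), which encodes the hormone-binding nuclear receptor, stood at 5561, 5109 and 5285 normalised counts in the 0 nM libraries and at 1976, 1703 and 1672 at 200 nM. The 2 groups are well apart, and EcR fell by 1.58 ± 0.09 log2 (SE; adjusted p = 1.12e-08, limma). Its partner usp (FBgn0003964) stood at 1496, 1376 and 1497 and at 1419.7, 1559.6 and 1455, overlapping ranges, and was not called (adjusted p = 0.875). Exons of Actn cover 8.72% of the exon length of usp on the same strand, and reads there cannot be assigned with certainty. Taiman (tai), which encodes a coactivator of the receptor, rose from a mean of 3821 to 6330 normalised counts.

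Of 19 tested genes for the receptor and ecdysone-induced transcription factors, 12 rose and 2 fell, against 10.1% and 10.9% over all genes, with a median log2 fold change of 1.15. Each list count below is to be read against these same shares. Nuclear receptor genes held several of the steepest rises. Eip75B (FBgn0000568), an early gene whose protein is a nuclear receptor, went from 105, 116 and 92.3 normalised counts to 8145, 6443 and 8505, a rise of 6.19 ± 0.11 log2 (adjusted p = 6.69e-14). Eip78C (FBgn0004865), its closest relative, went from 10.5, 15.98 and 14.5 to 2346, 2346 and 2378, with little spread at 200 nM. Hr4 (FBgn0264562) went from 22.3, 22.4 and 25.3 to 4545, 4612 and 4437, a rise of 7.54 ± 0.16 log2 (adjusted p = 2.35e-13). Eip78C and Hr4 started from low counts, where the size of the fitted fold also reflects the pseudocount of 1. Hr39 and Hr78, also nuclear receptor genes, rose by 2.25 and 0.60 log2, and svp, the COUP-TF homologue, by 1.15. Hr96 lay at 0.02 log2 and Hr38 at -1.13, and neither was called, though Hr38 was called lower without 200 nM replicate 2 (adjusted p = 0.0231).

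Hr3 (FBgn0000448), a nuclear receptor gene that follows the early genes in the hormone cascade, had no read in the 0 nM libraries and 4.71, 1.49 and 4.06 normalised counts at 200 nM, too few to be tested. Eip93F, a pupal specifier, stood at 0, 1.07 and 2.53 and at 3.14, 2.98 and 3.04 and was not tested either.

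Early factors that are not nuclear receptors rose as well. Broad (br, FBgn0283451), a BTB zinc-finger gene whose product marks the pupal stage, went from 6426, 5104 and 4808 normalised counts to 48085, 48595 and 48095. It was an abundant RNA before the hormone and rose by a further 3.16 ± 0.13 log2 (adjusted p = 3.36e-10). Eip74EF (FBgn0000567), an ETS factor gene, went from 534, 554 and 529 to 1291, 1152 and 1222, a smaller rise of 1.18 ± 0.08 log2 (adjusted p = 5.48e-08). Sox14, an HMG-box factor gene, went from 470.0, 438 and 408 to 2238, 2129.8 and 2346, 2.35 ± 0.07 log2. The bZIP gene vri, also a clock gene, went from 74.6, 132 and 59.4 to 2816, 3254 and 2831, 5.13 ± 0.20 log2. Every 200 nM library lay above every 0 nM library for each of these 4 genes. Kr-h1 and crol, zinc-finger genes of the same list, lay at -0.15 and -0.07 log2 and were not called.

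Blimp-1 and ftz-f1 moved in opposite directions. Blimp-1 (FBgn0035625) encodes a zinc-finger repressor that is known to hold ftz-f1 off while hormone is present. It had 1 read in the 3 libraries at 0 nM together and 6118 reads at 200 nM, where its level was 2491, 2951 and 2591 normalised counts. It was tested only through the 200 nM libraries, which the filter favours. The ratio was 8763, with an exact 95% interval of 1572 to 346200 that covers counting error only. The nuclear receptor gene ftz-f1 (FBgn0001078), which gives tissues the competence to respond to the next pulse, went from 2225, 2228 and 2157 to 72.2, 43.3 and 63.9. That is a fall of 5.21 ± 0.38 log2 or 37.1-fold (adjusted p = 1.51e-07), with nearly equal values in the 3 libraries at 0 nM.

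**Figure D2:**
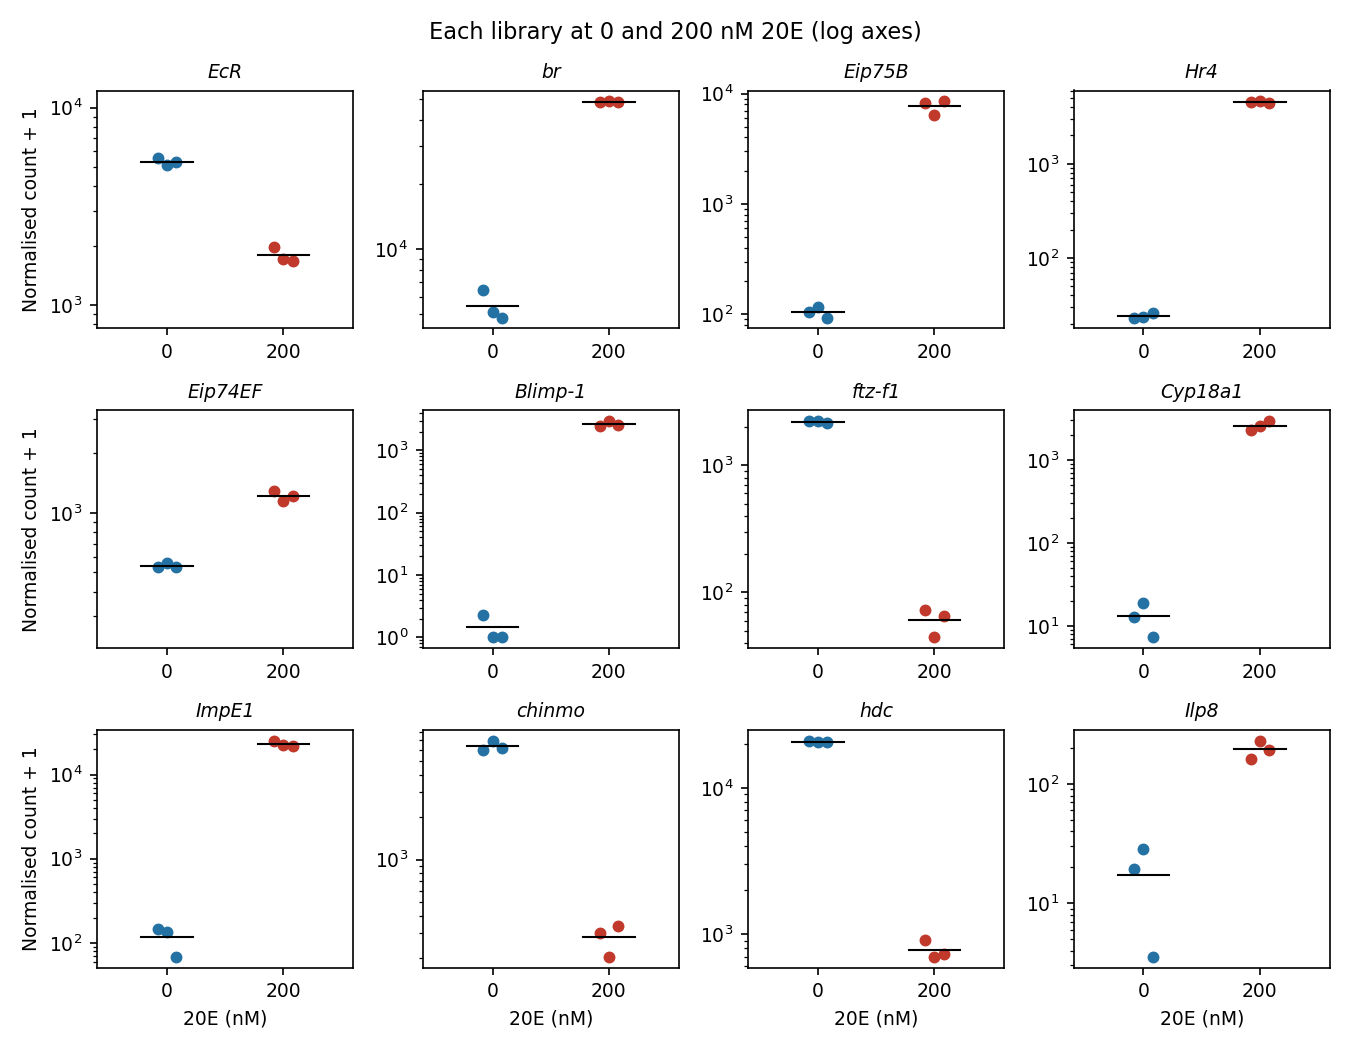
Each panel shows 1 gene, with the normalised count plus 1 of each library on a log axis at 0 nM (blue) and 200 nM (red) and the mean as a bar; vertical scales differ between panels. The 3 libraries of a dose lie close together compared with the distance between doses, except for Ilp8 at 0 nM, which spreads from 2.53 to 27.7 normalised counts.

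Genes first isolated as ecdysone-inducible were among the strongest. ImpE1 (FBgn0001253), an ecdysone-inducible gene of imaginal discs, went from 147, 133 and 67.03 normalised counts to 25208, 22708 and 21811, 210.0-fold (adjusted p = 1.68e-11). ImpE2 went from 209, 67.1 and 101 to 13541, 17362 and 12992, 128-fold, and ImpE3, at lower levels, from 20.9, 31.96 and 35.4 to 94.2, 140.3 and 112. At 200 nM the RNAs of ImpE1 and ImpE2 were thus among the abundant ones. The gene of the secreted insulin-binding protein ImpL2 went from 57.6, 117 and 51.2 to 441, 1151 and 568, with more spread than the others and a rise of 3.21 ± 0.33 log2 (adjusted p = 5.81e-06). Of 9 tested genes of this list 4 rose and 1 fell. The member that fell, Eip55E, an enzyme gene of cysteine metabolism, did so by 0.36 ± 0.10 log2 (adjusted p = 0.0194), and its call ended without 0 nM replicate 3 (adjusted p = 0.0684) or 200 nM replicate 2 (0.0933). Eip63E, Edg91 and ImpL1 lay at -0.02, -0.04 and 0.32 log2 and were not called.

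Genes for the handling of the hormone itself changed. Cyp18a1 (FBgn0010383), which encodes the cytochrome P450 that inactivates 20E, went from 11.8, 18.1 and 6.32 normalised counts to 2258, 2536 and 2927. It had 9, 17 and 10 reads at 0 nM, and the fitted rise was 7.72 ± 0.26 log2 (adjusted p = 4.03e-11). The gene phm (FBgn0004959), which encodes an enzyme of ecdysone synthesis known from the prothoracic gland, went from 9.16, 4.26 and 8.85 to 322, 324 and 362, 5.38 ± 0.22 log2. It was under 10 in every 0 nM library and was tested only through the 200 nM group where it is high, which the filter favours. Both genes are neighbours in the annotation, where the tested genes CCKLR-17D3 and CG6891 next to them also rose, by 1.17 and 0.46 log2. The ecdysteroid importer gene Oatp74D fell from 3786, 3770.3 and 3541 to 1869, 1781 and 1678, 1.06 ± 0.07 log2 (adjusted p = 3.23e-08). The synthesis gene sad stood at 43.2, 43.7 and 34.8 and fell to 21.99, 11.9 and 23.3. So 2 of the 7 tested genes rose and 2 fell, while sro, Npc1a and Npc2a lay between -0.02 and 0.14 log2 and were not called.

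Larval identity factors fell while br rose. Of 13 tested genes of temporal identity and growth restraint 7 fell and 4 rose, beside 10.9% and 10.1% over all genes. Their median was -0.54 log2. Chinmo (FBgn0086758), a BTB zinc-finger gene that maintains larval identity, went from 5952, 6938 and 6200.2 normalised counts to 300.0, 203 and 339, a fall of 4.53 ± 0.23 log2 (adjusted p = 3.29e-09). Headcase (hdc, FBgn0010113), known for restraining proliferation of imaginal cells, was among the more abundant RNAs at 0 nM, at 20977, 20495 and 20513, and stood at 914, 694 and 726 at 200 nM. This is a fall of 4.74 ± 0.19 log2 or 26.7-fold (adjusted p = 2.14e-10). The protein made by unk acts with Headcase, and unk stood at 3363, 3132 and 3335 and at 3631, 2689 and 3184, overlapping and not called (adjusted p = 0.81).

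Other BTB genes fell with chinmo. Abrupt (ab), which encodes a BTB zinc-finger repressor, went from 8162, 8127 and 8599 to 1478, 1694 and 1577, a fall of 2.39 ± 0.06 log2 (adjusted p = 3.36e-12). Fruitless (fru), best known for its role in sexual behaviour, went from 8402, 8841 and 8255 to 1008, 498 and 930.0, 3.45 ± 0.28 log2. Relative to their level, its libraries at 200 nM spread more than those at 0 nM, and they lay far below them. The BTB genes ken and lola fell by 2.09 and 0.54 log2. Of the opposed RNA-binding protein genes Imp and Syp, known from neural stem cells, Imp fell by 0.63 log2 and Syp rose by 0.72 ± 0.12 log2, from 17572, 15296 and 15236 to 29440.3, 23696 and 26357. The list's other rises were dac and rn, by 0.51 and 0.23 log2, and that of dac was lost without 0 nM replicate 2 (adjusted p = 0.0746) or 200 nM replicate 1 (0.0671).

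Several further genes changed as much as the classical targets. Tenectin (tnc, FBgn0039257), an extracellular matrix gene whose protein binds integrins, went from 302, 262 and 184 normalised counts to 14800.2, 11571 and 12067, 51.9-fold (adjusted p = 8.92e-11). The cuticle protein gene Cpr49Ac went from 86.4, 96.9 and 105 to 3066, 4262 and 3251, and wbl, an endoplasmic reticulum protein gene, from 70.7, 96.9 and 45.5 to 1354, 1581 and 1561. All 3 were expressed at 0 nM. A pair of genes with little spread had adjusted p-values among the smallest of all. One, bip1, went from 212, 216 and 223 to 3429.9, 3428 and 3862, 4.03 ± 0.06 log2 (adjusted p = 1.72e-14). The other, nmo, the gene of the Nemo-like kinase, went from 911, 916 and 823 to 9852, 9649 and 9964, 3.48 ± 0.06 log2 (adjusted p = 4.91e-14).

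Among the steepest falls was snsl, known for the barrier function of cuticle, at 57.6, 62.9 and 60.1 normalised counts at 0 nM and a single read in the 3 libraries at 200 nM. The ratio of 0 to 200 nM was 138.2, with an exact 95% interval of 24.53 to 5487 for counting error only. The odorant-binding protein gene Obp83g went from 192, 223 and 212 to 9.42, 5.97 and 17.2, and DOR, a coactivator gene linked to both ecdysone signalling and autophagy, from 1782, 1858 and 1869.9 to 166, 148 and 163. That is a fall of 3.52 ± 0.27 log2 for DOR (adjusted p = 2.66e-07), with tight replicates in both groups. Picot, a phosphate transporter family gene, fell by 3.51 ± 0.30 log2, and Gbs-76A, which encodes a glycogen-targeting subunit of protein phosphatase, by 3.19 ± 0.29. Cyp310a1, Osi14 and Ude fell by 2.84 ± 0.34, 2.82 ± 0.28 and 2.78 ± 0.30 log2. The gene gcl, a BTB gene known from germ cell formation, went from 1614, 1525 and 1615 to 427, 509 and 475. SNF4Agamma, the gamma subunit gene of the AMP-activated kinase, fell from 4893, 4382 and 5216 to 1691, 1628 and 1561, 1.57 ± 0.07 log2 (adjusted p = 7.08e-10).

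Genes known only by a CG or CR number held 240 rises and 284 falls among 2750 tested, near the 10.1% and 10.9% over all genes. Those named here were chosen after their values were seen. CG6142 fell the furthest of all tested genes on the fitted scale, from 375.6 ± 44.6 to 3.00 ± 2.99 normalised counts (SD, n = 3), and CG8170 went from 532.1 ± 72.5 to 18.7 ± 8.46. CG14598 rose from 28.2 ± 6.13 to 1857 ± 87.4, and CG1273 from 28.9 ± 3.02 to 1292 ± 38.7. CG13813 had no read at 0 nM and 129 at 200 nM, at least 61.6-fold higher against a floor of 3 reads over the group. Of 161 tested genes with a long non-coding or antisense RNA symbol 14 rose and 6 fell, and of 143 transposable element entries 4 rose and 4 fell. Both stand beside the same 10.1% and 10.9% over all genes.

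Cell cycle entry genes split while mitotic genes fell together. String (stg, FBgn0003525), the Cdc25 phosphatase gene that sets entry into mitosis, went from 4348, 4629 and 3492 normalised counts to 1927, 2461 and 2142, a fall of 0.93 ± 0.10 log2 (adjusted p = 1.18e-05). By contrast the G1 kinase gene Cdk4 went from 838, 838 and 803 to 1457, 1422 and 1556, a rise of 0.84 ± 0.06 log2, and E2f1, the S-phase transcription factor gene, from 6073, 5438 and 5452 to 9123, 9013 and 9542, 0.71 ± 0.07 log2. Neither pair of ranges overlaps. The ATR kinase gene mei-41 fell by 0.74 ± 0.10 log2. Of 27 tested cell cycle regulators 6 rose and 7 fell, shares of 22.2% and 25.9% beside 10.1% and 10.9% over all genes. Their median was -0.06 log2. The other rises were twe, a second Cdc25 gene, CycE, rux and E2f2, at 0.58, 0.48, 0.43 and 0.30 log2. The call of CycE was lost without 200 nM replicate 2 (adjusted p = 0.0553) and that of rux without 200 nM replicate 3 (0.052). The other falls were trbl, which promotes String degradation, dap, CycB, CycB3 and lok, at -0.67, -0.47, -0.41, -0.37 and -0.36. Cdk1, Cdk2, CycA and CycD lay between -0.10 and 0.11 log2 and were not called.

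Of 40 tested genes for mitosis and cytokinesis 26 (65%) fell and none rose, against 10.9% falls over all genes. Their median was -0.32 log2, and called members fell by 0.23 to 0.73. The cytokinesis genes tum and feo, which act on the central spindle, fell by 0.59 ± 0.07 log2, from 3737, 3227 and 3864 to 2318, 2397 and 2455, and by 0.45 ± 0.07. The spindle genes mars and ncd fell by 0.60 ± 0.09 and 0.48 ± 0.08. Exons of mars overlap those of drk, and exons of ncd those of ca, on the opposite strand, and the strand setting of the counting is not given in the sources used here. The list's furthest member was asp, a spindle pole gene, at -0.73 log2, and aurA, aurB and polo, the mitotic kinase genes, fell by 0.57, 0.44 and 0.23. The call of polo was lost without 0 nM replicate 1 (adjusted p = 0.0507) or 3 (0.0814) or 200 nM replicate 2 (0.105), and with only the 6 libraries at 0 and 200 nM (0.0587). Bub1, cid, mad2 and thr lay between -0.10 and 0.23 log2 and were not called. The members msps, BubR1 and Cap-G lay at -0.32, -0.30 and -0.20 log2 and were not called either. In a fit with a block for replicate number these were called lower (adjusted p = 0.000372, 0.0136 and 0.0422, limma). Without 0 nM replicate 3 the list held 16 falls. The summed level of the 13 muscle precursor markers was also lower, at 10055 to 12009 against 13169 to 14184 normalised counts, and its part in these falls was not tested.

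DNA replication genes changed little. Of 39 tested, 4 fell and none rose, a share near the 10.9% of all genes, with a median of -0.13 log2. At an unadjusted p under 0.05 by limma, 10 were lower and none higher. RfC4 and RfC3, clamp loader genes, fell by 0.30 ± 0.07 and 0.45 ± 0.11 log2, the latter from 335, 306 and 339 to 240.3, 252 and 222 normalised counts. The helicase genes dpa and Mcm2 fell by 0.24 ± 0.07 and 0.28 ± 0.09 log2 (adjusted p = 0.0226 and 0.0361). Both calls were fragile. That of dpa ended when 0 nM replicate 3 was left out (adjusted p = 0.116), and likewise for 200 nM replicate 1 (0.0598) and 3 (0.0713), and that of Mcm2 without any single 0 or 200 nM library (0.0555 to 0.123) or 20 nM replicate 2 (0.05). Without 0 nM replicate 3 or 200 nM replicate 3 the list held 2 falls. PCNA, RnrL and Orc1 lay between -0.02 and 0.01 log2.

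Ribosome biogenesis genes leaned upward by small amounts. Of 32 tested, 11 rose and 1 fell, beside 10.1% and 10.9% over all genes, with a median of 0.19 log2. Myc (FBgn0262656), the growth regulator, went from 1809, 1905 and 1563 normalised counts to 3237, 2495 and 2854, 0.70 ± 0.12 log2 (adjusted p = 0.000617). CG12535 overlaps 40.9% of its exon length on the opposite strand and itself averaged 0.436 and 4.59 counts. Mnt, the gene of a Max partner that opposes Myc, rose more, from 1358, 1199 and 1264 to 2550.5, 2282 and 2312, 0.90 ± 0.10 log2. The nucleolar genes Nopp140 and pit rose by 0.43 ± 0.06 and 0.35 ± 0.08 log2. RpI1, the largest subunit gene of RNA polymerase I, fell by 0.28 ± 0.09 log2 (adjusted p = 0.029), a call that ended when 0 nM replicate 1 (0.102) or 2 (0.0864) was left out, as for 200 nM replicate 2 (0.133), and with only the 6 libraries (0.0679). The rises of the list numbered 7 when replicate 1 of either dose was left out, and 6 when 0 nM replicate 3 was. Fib, Nop56 and nop5, core box C/D particle genes, lay between -0.03 and 0.09 log2 and were not called.

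Few genes of the translation and energy machinery were called. Of 86 tested cytoplasmic ribosomal protein genes 1 rose and none fell, with a median of 0.02 log2. The one was RpS19b, a paralogue at a low level, which went from 10.5, 10.7 and 13.3 to 25.1, 49.3 and 54.8 normalised counts. Among 67 genes of the oxidative phosphorylation complexes none rose or fell by limma or limma-voom, 2 were lower at an unadjusted p under 0.05, and the values ran from -0.26 to 0.16 log2. There was 1 rise with the replicate block and 1 fall without 200 nM replicate 3. Of 34 proteasome subunit genes none was called by limma or limma-voom, 4 were higher at an unadjusted p under 0.05, and the median was 0.09 log2. There were 4 rises with the replicate block, 2 without 20 nM replicate 1, and 1 when replicate 2 at 0 or at 2000 nM was left out. Of 72 mitochondrial ribosomal protein genes 8 fell and none rose, a share of 11.1% beside 10.9% over all genes. At an unadjusted p under 0.05 by limma, 14 were lower and none higher. The smallest adjusted p among them was that of mRpS30, which fell from 1190.0, 1212 and 1303 to 912, 873 and 890.5, 0.47 ± 0.07 log2 (adjusted p = 0.00018). The falls of mRpS31, mRpS26 and mRpL45, by 0.43 ± 0.11, 0.40 ± 0.11 and 0.31 ± 0.09 log2, were each lost without at least 1 library. For mRpS31 this was 200 nM replicate 2 (adjusted p = 0.0543). For mRpS26 it was 0 nM replicate 3 (0.0792), 200 nM replicate 1 (0.0521) or replicate 3 (0.0568), and for mRpL45 it was 0 nM replicate 1 (0.0526) or 3 (0.0957) or 200 nM replicate 2 (0.0715) or 3 (0.0579). The list held 2 falls without 0 nM replicate 3 and 5, 4 and 3 without 200 nM replicates 1, 2 and 3. Of 34 nucleoporin and nuclear transport genes 4 fell and none rose, a share of 11.8% beside 10.9% over all genes. At an unadjusted p under 0.05 by limma, 9 were lower and none higher, and with the replicate block 11 fell. The exportin gene Cse1 fell by 0.47 ± 0.09 log2, from 4803, 4074 and 4574 to 3673, 2869 and 3204, and it alone held the count at 1 without 0 nM replicate 1 or 3 or 200 nM replicate 2 or 3, where Nup214, Nup75 and Nup205 had adjusted p-values of 0.0522 to 0.0845.

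**Figure D3:**
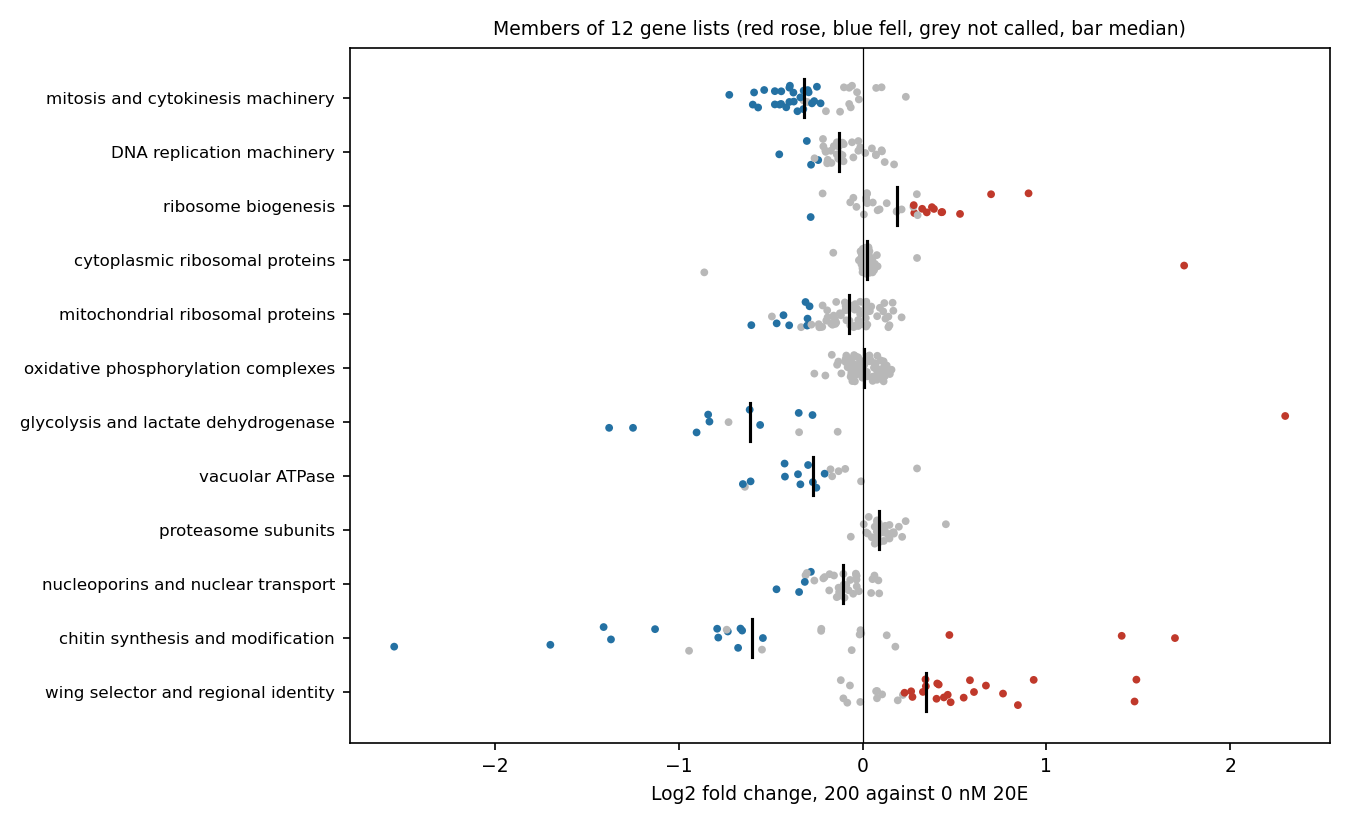
Each point is a tested member of 1 of 12 gene lists, placed by its log2 fold change at 200 against 0 nM; red members rose, blue members fell, grey members were not called, and the black bar is the list's median. The mitosis, glycolysis, vacuolar ATPase and chitin lists lie to the left, the wing selector list to the right, and the oxidative phosphorylation and proteasome lists around 0.

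Most glycolysis genes fell. Of 13 tested genes 9 fell and 1 rose, beside 10.9% and 10.1% over all genes, with a median of -0.62 log2. Phosphofructokinase (Pfk), the committed step, went from 2330.2, 2122 and 2481 normalised counts to 947, 913 and 1058, a fall of 1.25 ± 0.09 log2 (adjusted p = 1.86e-07). Pglym78, the phosphoglycerate mutase gene, went from 668, 729.8 and 692 to 261, 261 and 277, and the pyruvate kinase gene PyK from 6257, 6556 and 6998 to 3303, 3615 and 3673. Pgi fell by 0.84 ± 0.09 log2. Every 200 nM library lay below every 0 nM library for these 4 enzymes. Ldh, the lactate dehydrogenase gene, rose, from 233, 266 and 123 to 697, 1595 and 831, 2.30 ± 0.30 log2 (adjusted p = 6.26e-05). Its values spread more than 2-fold within each group. The hexokinase genes Hex-A and Hex-C lay at -0.35 and -0.73 log2 and Gapdh1 at -0.14, and none of these was called.

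Storage and transport of sugars and lipids shifted. The glycogen phosphorylase gene GlyP went from 5960.3, 5537 and 5474 to 2916, 2486 and 2922 and the glycogen synthase gene GlyS from 2892, 2814 and 3315 to 1809, 1481 and 1785, falls of 1.03 ± 0.07 and 0.83 ± 0.08 log2, so a gene for breakdown and one for synthesis of glycogen both fell. The sugar transporter gene Glut1 rose, from 189, 225 and 132 to 485, 507 and 471, 1.45 ± 0.17 log2. The triglyceride lipase gene bmm rose from 32.7, 39.4 and 21.5 to 133, 304 and 164, 2.60 ± 0.30 log2 (adjusted p = 1.82e-05). Of 17 tested genes of the list 3 rose and 7 fell, beside 10.1% and 10.9% over all genes, with a median of -0.15 log2. The glycogen branching enzyme gene AGBE and the lipin gene Lpin fell by 0.84 and 0.86 log2.

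Many vacuolar ATPase subunit genes fell by small amounts. Of 17 tested genes for this proton pump of lysosomes and endosomes 10 fell and none rose, beside 10.9% and 10.1% over all genes. Their median was -0.27 log2. Vha68-2, the catalytic subunit gene, went from 5020.4, 4849.5 and 5042 normalised counts to 3204, 3085 and 3199.9, -0.65 ± 0.05 log2 (adjusted p = 5.11e-07). Vha100-2, Vha55 and Vha26 fell by 0.61 ± 0.06, 0.43 ± 0.06 and 0.34 ± 0.05 log2. The replicates of these genes were tight, and their ranges at 0 and 200 nM do not overlap. Few autophagy genes were called. Of 24 tested, 3 fell and none rose, a share of 12.5% beside 10.9% over all genes, with a median of 0.00205 log2. The called ones were Atg18b, Atg4b and Atg6, at -0.59, -0.42 and -0.37 log2.

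The insulin and TOR pathway held both strong rises and strong falls. Pdk1, the kinase gene upstream of Akt, went from 610.0, 636 and 521 normalised counts to 8151, 7332 and 8461, 13.6-fold (adjusted p = 1.12e-12). The insulin receptor gene InR went from 2355, 2371 and 1941 to 8729, 6210.2 and 7259, 1.73 ± 0.15 log2. Several genes that restrain TOR or respond to low TOR fell. The REDD1 homologues scyl and chrb fell by 1.27 ± 0.07 and 1.00 log2, scyl from 12728, 12546 and 13242 to 5300.4, 5415 and 5294, and the transcription factor genes REPTOR, REPTOR-BP and foxo by 0.85, 0.32 and 0.29 log2. The hypoxia factor gene sima fell by 0.41 log2. The last 3 of these calls were fragile. That of REPTOR-BP was lost without 0 nM replicate 3 or 200 nM replicate 1 or 2 (adjusted p = 0.0624 to 0.0894), that of foxo without 0 nM replicate 1 or 2, 200 nM replicate 1 or 3 (0.0831 to 0.161) or the 20 and 2000 nM libraries (0.0663), and that of sima without 0 nM replicate 1 or 200 nM replicate 2 or 3 (0.0629 to 0.0688). In all, 4 of 27 tested genes rose and 7 fell, shares of 14.8% and 25.9% beside 10.1% and 10.9% over all genes. DOR and ImpL2, given above, were among them, and the median was -0.02 log2. Tor, S6k, Akt1, Rheb and Tsc1 lay between 0.05 and 0.17 log2 and were not called. The members gig and Thor were not called either. Thor was called lower without 0 nM replicate 1 (adjusted p = 0.0204, limma) or 200 nM replicate 2 (0.0281). Of 10 tested amino acid transporter genes 4 rose and none fell. The gene path went from 428, 425 and 269 to 3518, 5418 and 2951, 3.39 ± 0.20 log2, and minidiscs (mnd), needed for disc growth, from 226, 322 and 191 to 1798, 2513 and 1656, 3.02 ± 0.17 log2. The 200 nM replicate 2 was the highest for both. The other rises were dmGlut and blot, by 1.44 ± 0.11 and 0.39 ± 0.08 log2, while slif, whose protein carries arginine, lay at -0.12 and was not called.

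Of 6 tested Wnt ligand genes 5 rose. Wingless (wg, FBgn0284084), which patterns the wing margin, went from 929, 1038 and 828 normalised counts to 1869, 1736 and 1633, 0.91 ± 0.08 log2 (adjusted p = 1.3e-06). Wnt6, its neighbour in the genome, went from 656, 686 and 572 to 1153, 1166 and 1196, and Wnt4, at lower levels, from 30.1, 27.7 and 22.8 to 114.6, 131 and 86.2. The ligand genes Wnt2 and Wnt5 rose by 0.49 and 0.30 log2, and Wnt10, which averaged 10.9 and 20.4, was not called (adjusted p = 0.324). Of the feedback targets, nkd rose by 0.58 ± 0.09 and fz3 by 0.54 log2, while Notum lay at -0.0009 and was not called. The co-receptor gene arr fell by 0.40 ± 0.09 log2. Of 26 tested genes of the pathway 8 rose and 1 fell, beside 10.1% and 10.9% over all genes. The median was 0.04 log2, and intracellular members such as arm, dsh, Axn, sgg and pan lay between -0.09 and 0.11 log2.

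Genes of the Dpp and activin pathway changed in both directions. The tolloid-type protease genes tok and tld, which release ligands, rose from 6124, 5567 and 5150.5 to 20388, 16951 and 17046 and from 831, 1177 and 650.1 to 3686, 3146 and 3694, by 1.69 ± 0.13 and 2.02 ± 0.19 log2. The activin-like ligand gene daw, at low counts, rose from 11.8, 8.52 and 4.43 to 31.4, 85.1 and 28.4, by 2.32 ± 0.43 log2. Its 200 nM replicate 2 was the highest. The wing's BMP ligand gene dpp (FBgn0000490) rose from 1875, 1969.9 and 1693 to 2759, 2215 and 2730.3, 0.47 ± 0.08 log2, and sog, a BMP antagonist gene, by 0.84 ± 0.14. The BMP-binding protein gene cv-2 and the nuclear factor gene shn fell by 0.41 ± 0.08 and 0.47 ± 0.12 log2, and magu, which also encodes a secreted protein, by 0.30, lost without 200 nM replicate 3 (adjusted p = 0.0685). The ligand genes gbb, mav and myo lay between -0.13 and 0.01 log2 and were not called. Of 22 tested genes 6 rose and 4 fell, shares of 27.3% and 18.2% beside 10.1% and 10.9% over all genes. Without 200 nM replicate 3 there were 6 rises and 2 falls, and the median with all libraries was -0.03. The receptor genes tkv, put, sax, babo and wit and the targets Dad and brk lay between -0.13 and 0.09 log2 and were not called.

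Several genes of the EGF receptor pathway rose. Rhomboid (rho), the protease gene whose product releases active ligand, went from 48.4, 57.5 and 40.5 normalised counts to 234, 297 and 208, 2.31 ± 0.19 log2 (adjusted p = 5.17e-07), and S, the gene of the ligand escort Star, from 1702, 1621 and 1461 to 2429.5, 2186 and 2284. The ligand genes vn and spi rose by 0.65 and 0.40 log2 and Egfr by 0.31. The calls of vn and Egfr were lost without 0 nM replicate 3 (adjusted p = 0.0907 and 0.0893) or 200 nM replicate 1 (0.0806 and 0.0727). Inhibitors split. The phosphatase gene Mkp3 rose by 0.74 ± 0.07 log2, while the secreted antagonist gene aos fell from 1067, 1004 and 931 to 636, 715 and 639, 0.59 ± 0.08 log2, and cic, a repressor gene under the pathway's control, by 0.71 ± 0.12. In all 7 of 24 tested genes rose and 3 fell, beside 10.1% and 10.9% over all genes. Of the falls, kek2 was under 10 in every 200 nM library, which the filter favours. The median was 0.12 log2, and the cascade genes Raf, Dsor1 and rl lay between -0.13 and 0.02.

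Notch pathway genes went both ways. The coactivator gene mam went from 2509.5, 2377 and 2211 to 6828, 5874 and 6158, 1.41 ± 0.08 log2 (adjusted p = 1.56e-08), and the Notch inhibitor gene numb and nvy rose by 0.48 ± 0.05 and 0.78 ± 0.11. The 5 falls were all genes of the Enhancer of split complex, the classical targets, among them E(spl)m7-HLH from 429, 427 and 458 to 173, 276 and 263 and E(spl)mgamma-HLH from 114, 143 and 138 to 48.7, 77.6 and 73.02 normalised counts. Another gene of the complex, E(spl)m2-BFM, rose by 0.48 log2. Of 26 tested genes 7 rose and 5 fell, beside 10.1% and 10.9% over all genes, with a median of 0.07. Without 0 nM replicate 3 or 200 nM replicate 1 there were 4 rises. N and Su(H), the receptor and the DNA-binding factor, lay at 0.02 and 0.08 log2 and were not called.

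Hedgehog and JAK/STAT genes changed little. Of 13 tested Hedgehog genes 4 rose and none fell, beside 10.1% and 10.9% over all genes. The ligand gene hh rose from 1093, 1061 and 1109 to 1309.8, 1464 and 1372, 0.34 ± 0.06 log2, and the posterior selector genes en and inv by 0.26 ± 0.06 and 0.27 ± 0.07. The call of inv was lost without 0 nM replicate 3 (adjusted p = 0.0525) or 200 nM replicate 3 (0.0736). The target gene rdx (adjusted p = 0.0429) was lost without any of the 0 nM libraries, 200 nM replicate 1 or 3, 20 nM replicate 2 or 3 or 2000 nM replicate 1 (0.0527 to 0.174), with no filter (0.0527) and with only the 6 libraries (0.0862). Without 0 nM replicate 3 or 200 nM replicate 3 the list held 2 rises. The receptor gene ptc lay at -0.04 log2. Of 10 tested JAK/STAT genes Stat92E fell, by 0.40 ± 0.09 log2, and no other was called.

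Many genes that give the wing disc its regions rose. Of 32 tested wing selector and regional identity genes 21 (65.6%) rose and none fell, beside 10.1% and 10.9% over all genes, with a median of 0.34 log2. Blistered (bs), which specifies intervein cells, went from 829, 796 and 710.1 normalised counts to 1527, 1509 and 1412, 0.93 ± 0.07 log2 (adjusted p = 2.22e-07). Dll, active at the wing margin and in the limbs, went from 1018, 1069 and 969 to 1825, 2072 and 1618, and the wing pouch gene nub from 3575, 3653 and 3294 to 5181, 5216 and 5359. The notum gene eyg went from 762, 763 and 863 to 1371, 1364 and 1315 and the dorsal selector gene ap from 6078, 5687 and 5685 to 9449.6, 8647 and 8488. Genes of the pouch, the notum and the dorsal compartment were thus among the rises. The furthest members were disco and mid, at 1.49 and 1.48 log2, and hth and tsh, genes of the proximal wing and hinge, were at 0.46 and 0.41. The wing genes vg, sd, bi and ct lay between -0.12 and -0.01 log2 and were not called. The wing disc marker list, which shares members with this one, held 10 rises and no fall among 15.

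Proneural and sensory organ genes rose. Of 16 tested, 10 rose and 1 fell, beside 10.1% and 10.9% over all genes, with a median of 0.50 log2. Of these rises 2, sens and scrt, were under 10 in every 0 nM library, which the filter favours. Scute (sc), which starts the formation of sensory organs, went from 165, 126 and 154 normalised counts to 294, 373 and 328, 1.16 ± 0.12 log2 (adjusted p = 4.61e-06), and its partner ac by 1.10. The Iroquois gene ara, which prepatterns proneural expression, went from 1393, 1215 and 1244 to 2007, 1982 and 1937, and its relatives caup and mirr rose by 0.52 and 0.40 log2. Genes of the sensory organ precursor itself started near 0. Senseless (sens) rose from 3.52 ± 3.05 to 34.8 ± 8.63 (SD, n = 3), and scrt had 1 read in the 3 libraries at 0 nM and 46 at 200 nM, a ratio of 65.89 with an exact 95% interval of 11.25 to 2658 for counting error only. The neural gene elav went from 441, 332 and 304 to 636, 533 and 511, 0.65 ± 0.16 log2. Charlatan (chn) was the member that fell, from 3803, 3658 and 3673 to 2093, 1792 and 1905, 0.95 ± 0.07 log2, and h, da and sca lay between 0.02 and 0.08.

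Hippo pathway genes moved by small amounts. Of 19 tested, 7 rose and 3 fell, beside 10.1% and 10.9% over all genes, with values from -0.60 to 0.42 log2. The kinase gene hpo and the LIM-protein gene jub rose by 0.33 ± 0.06 and 0.33 ± 0.06 log2, wts by 0.32 and fj by 0.42 ± 0.10. The upstream gene kibra went from 3148, 3256 and 2471.2 to 2166, 1857 and 1812, a fall of 0.60 ± 0.10 log2, and d, the gene of the myosin Dachs, fell by 0.37 ± 0.08. The effector gene yki lay at 0.13 log2 and was not called. Of 13 planar polarity and wing hair genes 2 rose and none fell. They were fj and pk, the latter by 0.60 ± 0.11 log2, and fz, Vang and stan lay between -0.11 and 0.30 and were not called. With the replicate block 4 genes of this list rose, stan among them (adjusted p = 0.0274).

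Cell death genes rose at several steps. Of 15 tested, 6 rose and 2 fell, beside 10.1% and 10.9% over all genes, with a median of 0.24 log2. Dronc, the initiator caspase gene, went from 640.1, 689 and 655 normalised counts to 1693, 1699.9 and 1588, 1.33 ± 0.08 log2 (adjusted p = 1.08e-08). The genes hid and rpr, whose products block caspase inhibitors, went from 1018, 1408 and 1175 to 2294, 2388 and 2209 and from 177, 274 and 236 to 422, 454 and 473. The adaptor gene Dark rose by 0.72 log2 and the effector caspase gene Drice by 0.24. Inhibitor genes split, with Diap1 up by 0.27 and Diap2 down by 0.33 ± 0.06 log2. The call of Drice was lost without 0 nM replicate 2 or 3 or 200 nM replicate 1 or 2 (adjusted p = 0.0529 to 0.0648), and that of Diap1 without 0 nM replicate 1 or 200 nM replicate 1 or 3 (0.0564 to 0.0844). Debcl fell by 0.29 ± 0.08 log2, a call lost without 0 nM replicate 1 (adjusted p = 0.0628) or 200 nM replicate 1 (0.0597), where the list held 1 fall.

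Ilp8 (FBgn0036690), a relaxin-like gene that delays metamorphosis when discs are damaged, went from 18.3, 27.7 and 2.53 normalised counts to 162, 229.8 and 192. The groups do not overlap, but the 0 nM values differ widely among themselves, and the rise of 3.95 ± 0.67 log2 has a wide error (adjusted p = 0.000622). The stress factor gene Atf3 moved the other way, from 2414, 2541 and 2169.6 to 763, 451 and 669, 1.95 ± 0.24 log2. The TNF gene egr rose by 0.53 ± 0.12 log2. The Fos gene kay rose by 0.29 ± 0.08, which was lost without 0 nM replicate 3 (adjusted p = 0.0792) or 200 nM replicate 1 (0.0659). The bZIP gene Irbp18 fell by 0.52 ± 0.16, lost without 0 nM replicate 2 (0.105) or 3 (0.13) or 200 nM replicate 1 (0.071) or 2 (0.107), where the list held 1 fall, and its exons overlap those of CG33947 on the opposite strand. Of 18 tested JNK pathway and wound response genes 3 rose and 2 fell, shares of 16.7% and 11.1% beside 10.1% and 10.9% over all genes, with a median of 0.11 log2. The JNK gene bsk and its feedback target puc lay at 0.18 and -0.16 and were not called, though bsk was called without 2000 nM replicate 2 (0.0466) or 3 (0.0385).

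All 5 tested small heat shock genes rose, and the size of the rise differed with the 0 nM libraries used. Hsp27, long known as ecdysone-inducible, went from 6161, 8426 and 4856 normalised counts to 22445, 22226 and 25196, 1.88 ± 0.15 log2 (adjusted p = 5.21e-07). Hsp26 went from 732, 2397 and 324 to 3179, 2812 and 3817, and Hsp23 from 3163, 6816 and 2199.9 to 9327, 7698 and 11459.8. In these 3 genes 0 nM replicate 2 was the highest of its group. Without it the rises were 2.09, 2.73 and 1.83 log2, where with it they were 1.88, 1.97 and 1.37, and without 0 nM replicate 3 they were 1.69, 1.29 and 1.01. Hsp67Bc, at 19.6, 78.8 and 19.0 counts at 0 nM and 78.5, 77.6 and 86.2 at 200 nM, has overlapping groups. It rose by 1.35 log2 (adjusted p = 0.0248), or 2.01 without that library, and its call was lost without 0 nM replicate 1 (0.108) or 3 (0.114), without any 200 nM library (0.0558 to 0.0755) and with only the 6 libraries at 0 and 200 nM (0.0689). Hsp67Ba rose by 1.20 ± 0.18 log2, with an antisense gene over 75.9% of its exon length. Other chaperones differed. The endoplasmic reticulum chaperone gene Hsc70-3 rose by 0.49 ± 0.06 log2, while stv and the mitochondrial chaperone gene Hsp60A fell by 0.59 ± 0.10 and 0.44 ± 0.08. Hsc70-5, also mitochondrial, fell by 0.22 ± 0.06, lost without 0 nM replicate 2 (0.0702) or 200 nM replicate 2 (0.0516). That makes 1 rise and 3 falls among 12, shares of 8.33% and 25% beside 10.1% and 10.9% over all genes. Hsp83 and Hsp68 lay at -0.15 and -0.13 and were not called.

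Oxidative stress, detoxification and clock genes each split. Keap1, the gene of an inhibitor of the stress factor Cnc, went from 115.2, 117 and 121 normalised counts to 295, 303 and 251, 1.25 ± 0.10 log2, and cnc rose too, by 0.80 ± 0.12. Gclc, for glutathione synthesis, and the peroxiredoxin gene Jafrac1 fell by 0.69 ± 0.10 and 0.42 ± 0.09 log2. Of 15 tested genes 3 rose and 3 fell. Of 66 Ugt, Gst and cytochrome P450 genes 8 rose and 11 fell, shares of 12.1% and 16.7% beside 10.1% and 10.9% over all genes, and 5 rose without 200 nM replicate 2 or 3. Of the 8 rises 3, and of the 11 falls 1, were in genes under 10 in every library of the lower group, which the filter favours. Beside Cyp18a1 and Cyp310a1, Ugt317A1 went from 267, 280.2 and 347 to 748, 837 and 854, Ugt302C1 from 1640.3, 1780.2 and 1599 to 639, 715 and 570.0 and Ugt35A1 from 165, 165 and 259 to 28.3, 41.8 and 27.4. Of 7 clock genes vri rose and Pdp1 and cwo fell, by 1.75 ± 0.11 and 0.51 ± 0.08 log2, with Pdp1 going from 679, 732 and 737 to 193, 227 and 218. The clock gene per lay at 1.65 log2 and was not called, and 2 clock genes rose without 0 nM replicate 2.

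Basement membrane genes changed in both directions. Papilin (Ppn) went from 3749, 3412 and 2685 normalised counts to 23623, 18533 and 19133 and Multiplexin (Mp), the collagen XV and XVIII homologue, from 541, 349 and 338 to 2784, 2840.2 and 2679.6, rises of 2.64 ± 0.14 and 2.79 ± 0.14 log2. The laminin gene wb went from 1987, 2119 and 1624 to 691, 694 and 627, a fall of 1.5 ± 0.11 log2 (adjusted p = 2.33e-07). Both collagen IV genes fell, Col4a1 by 0.71 ± 0.09 and vkg by 0.90 log2, SPARC by 0.50 and the laminin gene LanB1 by 0.40. So 2 of 14 tested genes rose and 5 fell, shares of 14.3% and 35.7% beside 10.1% and 10.9% over all genes. The median was -0.01. Fat body and blood cells also make collagen IV. The fat body markers differed within the 0 nM group as given above, and 6 of 11 blood cell markers stood under 10 counts in both groups. Col4a1 stood at 3857, 3107 and 3489 in the 0 nM libraries and at 2359, 1866 and 2154 at 200 nM, and its call held without each library in turn. The part of fat body or blood cells in the collagen IV falls was not tested.

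Matrix protease genes changed in both directions. AdamTS-A went from 360.0, 381 and 326 normalised counts to 3353, 3683 and 3413, 3.29 ± 0.09 log2 (adjusted p = 5.83e-12), and the serine protease gene Np, known for matrix removal during eversion, from 200.3, 130.0 and 109 to 1621, 1078 and 1456, 3.26 ± 0.18 log2. Mmp2 went from 401, 337 and 291 to 711, 578 and 558, 0.85 ± 0.14 log2, and Reck, a matrix protease inhibitor gene, rose by 1.29 ± 0.12. The metalloprotease gene kuz rose by 0.36 log2, lost without 0 nM replicate 2 or 3, 20 nM replicate 2 or 200 nM replicate 1 or 3 (adjusted p = 0.0552 to 0.156). Mmp1 stood at 2584, 2786 and 1582 and at 3556, 2819 and 2829. All 3 libraries at 200 nM were above those at 0 nM, yet it was not called (adjusted p = 0.109), and without 0 nM replicate 2 it would be (0.0394). The inhibitor gene Timp fell from 56.3, 47.9 and 42.4 to 23.6, 20.9 and 28.4, lost without 0 nM replicate 1 (0.0625) or 200 nM replicate 2 (0.0608) and with limma-voom (0.0567), and its exons overlap those of Syn on the opposite strand. AdamTS-B fell by 0.24 ± 0.06 log2, lost without 0 nM replicate 2 (0.0669) or 200 nM replicate 3 (0.0506). Of 9 tested genes 5 rose and 2 fell, or 1 fell in each of these fits.

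Of the integrin and adhesion genes called, most fell, while the integrin ligand gene tnc rose as given above. The alpha integrin gene if went from 2464, 2316 and 2101 normalised counts to 829, 839 and 715, 1.53 ± 0.09 log2 (adjusted p = 1.19e-08), and the linker gene Zasp52 from 8906, 7445 and 7505 to 3849, 2934 and 2832. The linker genes parvin and stck fell by 0.60 ± 0.07 and 0.58 log2, mew and mys, integrin subunit genes, by 0.43 and 0.29, and Fit1 by 0.39. The call of mys was lost without 0 nM replicate 1 or 200 nM replicate 2 or 3 (adjusted p = 0.0957 to 0.1). The integrin gene scb rose by 0.74 ± 0.20 log2, lost without 0 nM replicate 3 (adjusted p = 0.0653) or 200 nM replicate 1 (0.0755), where tnc was the list's single rise. Of 18 tested genes 2 rose and 7 fell, shares of 11.1% and 38.9% beside 10.1% and 10.9% over all genes. The median was -0.17 log2, and rhea, Vinc and Ilk lay between -0.16 and 0.11 and were not called. Of 13 muscle precursor markers 6 also fell, and their part in these falls was not tested.

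Apical matrix, chitin and cuticle genes changed in both directions. Of 9 tested zona pellucida domain genes, whose products form the apical matrix, neo went from 945, 983 and 905 normalised counts to 7804, 7152 and 7381, 2.98 ± 0.06 log2 (adjusted p = 2.14e-13), and pio and mey rose by 0.62 ± 0.06 and 0.57 ± 0.08. The member nyo fell by 0.46 ± 0.12 log2, lost without 0 nM replicate 1 (0.0561) or 200 nM replicate 3 (0.0625). Of 26 chitin genes 3 rose and 12 fell, beside 10.1% and 10.9% over all genes, with a median of -0.60 log2. The chitinase genes Cht10 and Cht5 went up, from 7247, 5404 and 5836 to 23017, 19107 and 17927 and from 579, 455 and 473 to 1282, 1446 and 1265, and the chitin synthase gene kkv rose by 0.47 log2. Of the genes for the chitin precursor, Gfat1 and mmy fell. Gfat1, the gene of the first enzyme, went from 8499, 7602 and 8350.1 to 3243, 2972 and 3217, 1.37 ± 0.06 log2 (adjusted p = 1.23e-09), and mmy, that of the last, from 1099.6, 1206 and 1192 to 678, 706 and 643. The chitin deacetylase genes verm and serp fell by 0.73 ± 0.08 and 0.54 ± 0.08 log2. The chitin-binding protein gene obst-E fell by 2.55 log2 and was under 10 in every 200 nM library, which the filter favours. Gfat2 and nst, of the same synthesis route, lay at -0.06 and -0.02 log2 and were not called. Of 22 tested structural cuticle genes 4 rose and 3 fell, shares of 18.2% and 13.6% beside 10.1% and 10.9% over all genes. Of the falls, TwdlE was under 10 in every 200 nM library, which the filter favours. Beside Cpr49Ac, TwdlM rose from 6.55, 7.46 and 12.01 to 43.97, 43.3 and 25.4, while Cpr51A went down from 128, 131 and 138 to 17.3, 19.4 and 31.4 and Cpr66D from 253, 202 and 259.9 to 56.5, 58.2 and 66.9.

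Few junction and cytoskeleton genes were called. Of 34 tested junction and polarity genes 3 rose and 5 fell, shares of 8.82% and 14.7% beside 10.1% and 10.9% over all genes. The septate junction genes vari, Nrg and Fas3 fell by 0.61 ± 0.07, 0.60 ± 0.11 and 0.39 ± 0.07 log2, vari from 8529, 8733 and 8326 to 5858, 5385 and 5577, with exons of Pomp on the opposite strand over 15.2% of its length. Lac and p120ctn rose by 0.43 ± 0.07 and 0.30 ± 0.08 log2. E-cadherin (shg), crb and aPKC lay between 0.06 and 0.17 and were not called. The falls of this list numbered 3 without 0 nM replicate 1 or 2, 200 nM replicate 2 or 3, or with only the 6 libraries at 0 and 200 nM, 9 without 200 nM replicate 1 and 8 with the replicate block. Among 21 cytoskeleton genes 4 rose and 3 fell, shares of 19% and 14.3% beside the same 10.1% and 10.9%. Act5C, the main cytoplasmic actin gene, went from 47169.5, 49902 and 48525 normalised counts to 65646, 68269.9 and 68926, 0.48 ± 0.09 log2, and the bristle bundle gene f from 17.02, 23.4 and 17.7 to 50.3, 59.7 and 75.1. The profilin gene chic and ena rose by 0.38 and 0.46 log2. Moe, which links actin to the membrane, and Rac2 fell by 0.46 ± 0.07 and 0.54 ± 0.07 log2, while the myosin genes sqh and zip lay at 0.15 and 0.05 and were not called.

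Markers of other cell types in and around the disc were followed as whole lists. Adult muscle precursor markers, of cells that lie under the notum epithelium, held 6 falls and 1 rise among 13. This stands beside 10.9% falls and 10.1% rises over all genes, and the median was -0.30 log2. The gene blow, for myoblast fusion, went from 4278, 4402 and 4226 normalised counts to 2384, 2361 and 2497, 0.83 ± 0.09 log2 (adjusted p = 5.6e-06), and the FGF receptor gene htl from 514, 496 and 527 to 389, 316 and 304. The cell adhesion genes rst and kirre fell by 0.53 ± 0.10 and 0.47 log2. The call of kirre was lost without 0 nM replicate 1 or 3 or 200 nM replicate 1 or 2 (adjusted p = 0.0525 to 0.097). The defining factors twi and Mef2 lay at -0.29 and -0.08 and were not called, though twi was called lower without 0 nM replicate 1 (adjusted p = 0.0489) or 200 nM replicate 1 (0.0461), and zfh1 rose by 0.44 ± 0.13, lost without 0 nM replicate 2 (adjusted p = 0.104) or 200 nM replicate 1 (0.106) or 3 (0.06). Of 8 trachea markers 3 rose and 2 fell, and their summed level was 21642 to 23939 at 0 nM and 15696 to 17843 at 200 nM. The falls were the chitin deacetylase genes verm and serp. The defining tracheal factor trh went from 1392, 1445 and 1317 to 1831, 1907 and 1721, 0.39 ± 0.07 log2, and knrl rose by 0.80 ± 0.10. Of 4 tested neuron and glia markers elav alone rose, and 7 of the 11 in the table, repo and nSyb among them, stood under 10 counts. None of 5 tested blood cell markers was called by limma or limma-voom, and none had an unadjusted p under 0.05. Their values ran from 0.008 to 1.75 log2, with a median of 0.73. The summed level of the 11 blood cell markers was 316 to 740 at 0 nM and 442 to 641 at 200 nM.

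No fat body marker of 8 was called with all libraries by limma or limma-voom, and none had an unadjusted p under 0.05. The larval serum protein gene Lsp1beta stood at 244.8, 2.13 and 1136 normalised counts in the 0 nM libraries and at 9.42, 106.0 and 119.7 at 200 nM. Lsp1gamma stood at 349.5, 5.33 and 880.9 and at 91.1, 131.3 and 182.6. The order of libraries at 0 nM was the same for both, with replicate 3 high and replicate 2 low. With all libraries the log2 differences of Lsp1beta and Lsp1gamma were -0.90 and 0.06. Without 0 nM replicate 2 they were -3.37 and -2.09, and without 0 nM replicate 3 they were 0.89 and 1.47, so both depended on single libraries in sign. Without 0 nM replicate 2, Lsp1beta, Lsp1gamma and Lsp2 fell, at adjusted p = 0.0365, 0.000841 and 0.0349, and without 0 nM replicate 3 Yp2 did (0.0124). Of 10 tested markers of other discs 7 rose and 1 fell. The leg and antenna gene bab2 went from 792, 626 and 716 to 2051, 1827 and 1789, 1.41 ± 0.09 log2, eya from 288, 254 and 276 to 514, 482 and 438 and ss from 474, 396 and 358 to 801, 754 and 627, while the eye gene so fell from 340.4, 374 and 333 to 215, 198 and 189.7. The eye selectors ey and toy stood under 10 counts in both groups.

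**Figure D4:**
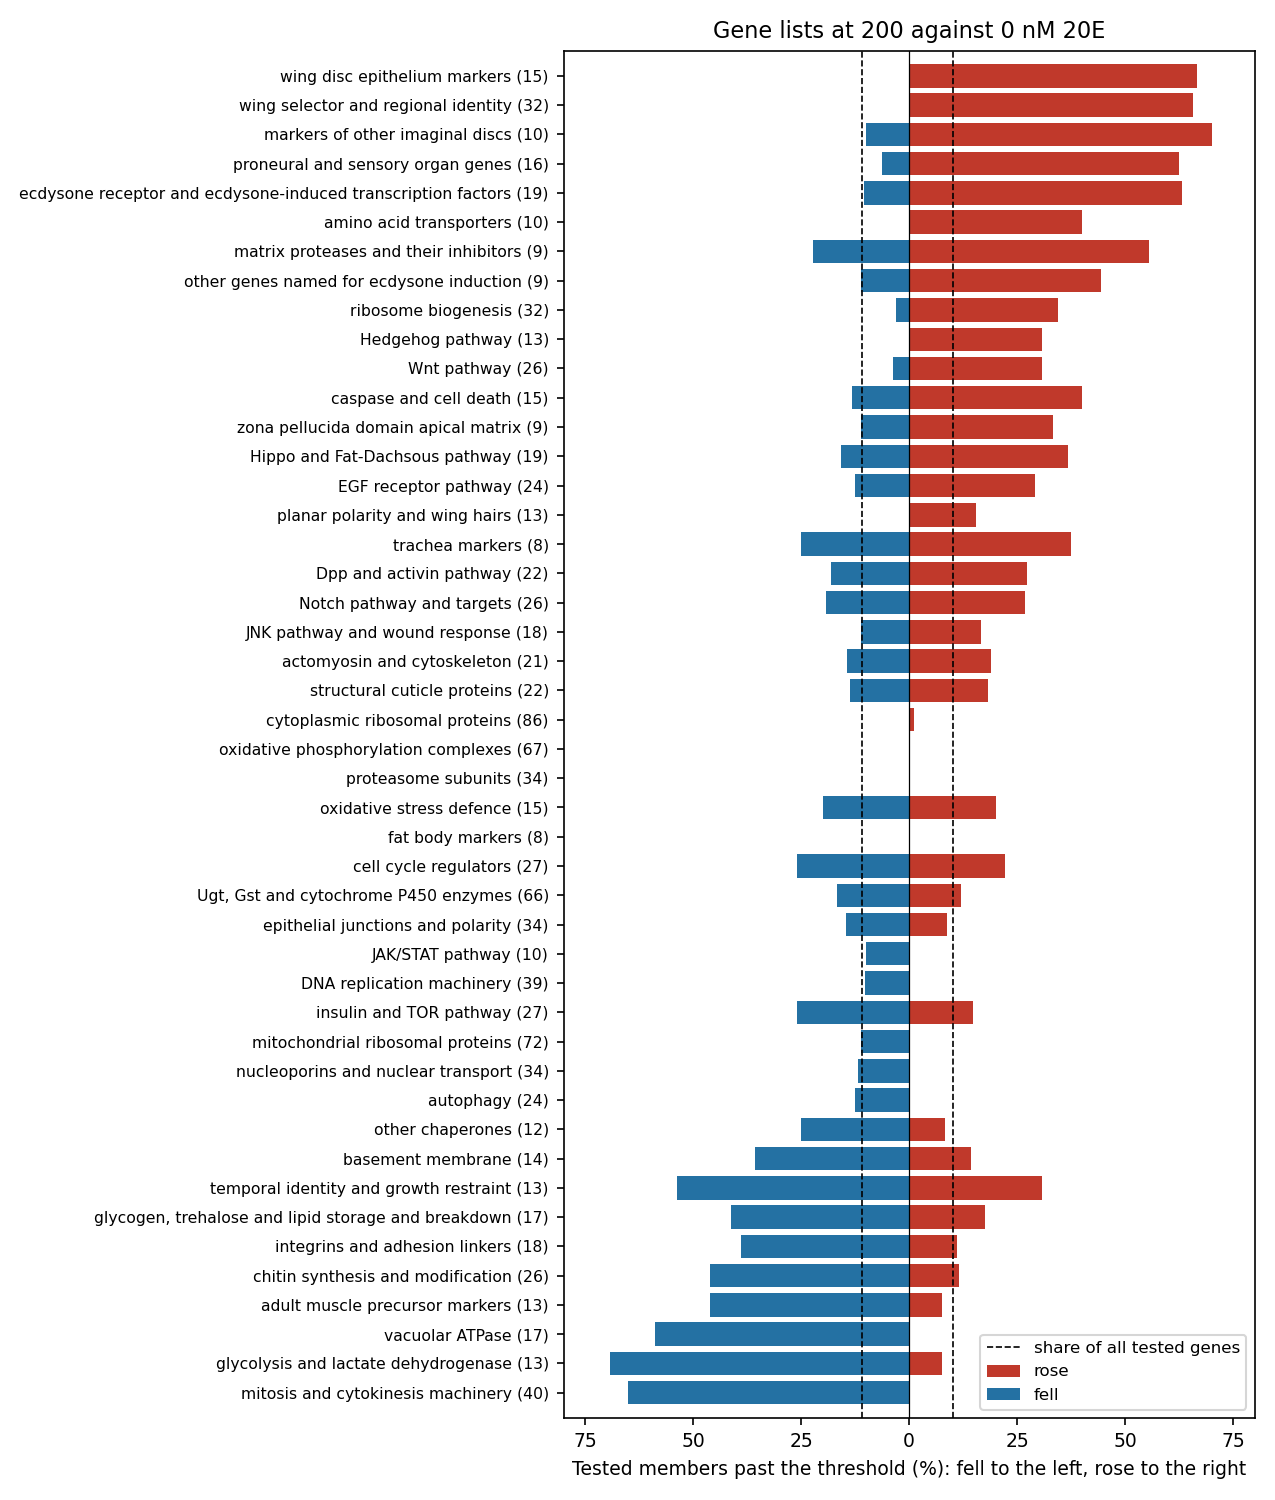
Bars give, for each gene list with at least 8 tested members (number in brackets), the share of tested members that rose (right, red) or fell (left, blue) at 200 against 0 nM; dashed lines mark the shares over all tested genes, 10.1% and 10.9%. Wing selector, disc, proneural and ecdysone factor lists reach past 60% on the right, and mitosis and glycolysis genes past 60% on the left.

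More genes differed between 200 and 20 nM than between 200 and 2000 nM. Against 20 nM, 356 genes rose (4.38%) and 322 fell (3.96%) at 200 nM, 8.34% together. Between 200 and 2000 nM 14 rose (0.172%) and 3 fell (0.0369%), 0.209% together. Leaving out single libraries of those doses left 0 to 7 rises and 0 to 4 falls in the latter comparison, and none of either without 200 nM replicate 3 or 2000 nM replicate 1, while single 0 or 20 nM libraries left 8 to 15 and 2 to 4. All of these tests come from the same fit, share the 200 nM libraries and were adjusted over the 8133 genes. Against 0 nM, 252 genes rose (3.1%) and 131 fell (1.61%) at 20 nM, and 1260 rose and 1317 fell at 2000 nM, or 31.7% together.

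Some early genes had most of their rise by 20 nM. Eip75B averaged 4859.5 at 20 nM, 7698 at 200 nM and 9885 normalised counts at 2000 nM, and the step from 20 to 200 nM was 0.66 ± 0.11 log2 (adjusted p = 0.00175). The gene vri averaged 2402, 2967 and 2538, with no difference called between 20 and 200 nM (adjusted p = 0.49). Eip74EF was the exception in direction. It averaged 539 at 0 nM, 2277 at 20 nM, 1222 at 200 nM and 1517 at 2000 nM, and its level at 200 nM was lower than at 20 nM by 0.90 ± 0.08 log2 (adjusted p = 3.61e-06).

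Other genes had most or much of their rise between 20 and 200 nM. Hr4 averaged 68.5 at 20 nM and 4531 at 200 nM, a step of 6.07 ± 0.16 log2 (adjusted p = 3.87e-11), and Blimp-1 32.5 and 2678, 6.65 ± 0.45 log2. Cyp18a1, tnc and ImpE1 rose by 3.59 ± 0.26, 3.43 ± 0.21 and 4.14 ± 0.24 log2 over this step. From 0 to 20 nM these 3 had already risen, by 4.13 ± 0.26, 2.27 ± 0.21 and 3.58 ± 0.24 log2. The amino acid transporter genes mnd and path rose by 2.44 ± 0.17 and 2.40 ± 0.20 log2 from 20 to 200 nM, and Pdk1 by 1.5 ± 0.09. From 0 to 20 nM Pdk1 had risen by 2.26 ± 0.09 log2. Falls continued from 20 to 200 nM too, by 3.58 ± 0.38 log2 for ftz-f1, 2.85 ± 0.19 for hdc, 2.47 ± 0.23 for chinmo and 2.43 ± 0.27 for DOR. EcR averaged 2779.7 at 20 nM and 1784 at 200 nM, 0.64 ± 0.09 log2 lower (adjusted p = 0.000295), and 1527 at 2000 nM, where the difference from 200 nM was not called (adjusted p = 0.371).

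Growth and patterning genes changed by smaller steps. Over the step from 20 to 200 nM, Pfk fell by 0.84 ± 0.09 log2 (adjusted p = 3.47e-05) and stg by 0.41 ± 0.10 (adjusted p = 0.024), a call lost without 20 nM replicate 2 (0.102) or 3 (0.092) or 200 nM replicate 1 (0.1) or 3 (0.0806), while wg rose by 0.56 ± 0.08 (adjusted p = 0.000414). Mitosis genes held 4 falls and glycolysis genes 8 over it. Side by side against 0 nM, which the comparisons share, the mitosis list held 0, 26 and 29 falls at 20, 200 and 2000 nM, and the wing selector list 8, 21 and 22 rises. DNA replication genes held 0, 4 and 21 falls, mitochondrial ribosomal protein genes 0, 8 and 20, and proteasome genes 0, 0 and 9 rises.

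The genes called between 200 and 2000 nM were few, and none kept its call without 200 nM replicate 3 or 2000 nM replicate 1. Hr4 averaged 4531 and 11389 normalised counts, a step of 1.33 ± 0.16 log2 (adjusted p = 0.0106, and 0.059 and 0.0926 without those libraries). The kinase gene nmo and the apical matrix gene neo rose by a further 0.40 and 0.44 log2, and Glut4EF, Fkbp14, alt and frm by 0.69, 0.47, 0.37 and 0.56. The gene ich, a zinc-finger gene known from the trachea, fell from 49.3 at 0 nM to 3.39 at 200 nM and stood at 16.9 at 2000 nM, where it was higher again by 2.02 log2 (adjusted p = 0.0372). Gfat1, Ugt35A1 and CG34120 fell further. The rest of the 17 were CG5639, CG7720, CG10283, CG4586, CG12880 and lncRNA:CR33938, which rose. Cyp18a1 averaged 2574 and 6104, and that step was not called (adjusted p = 0.094).

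**Figure D5:**
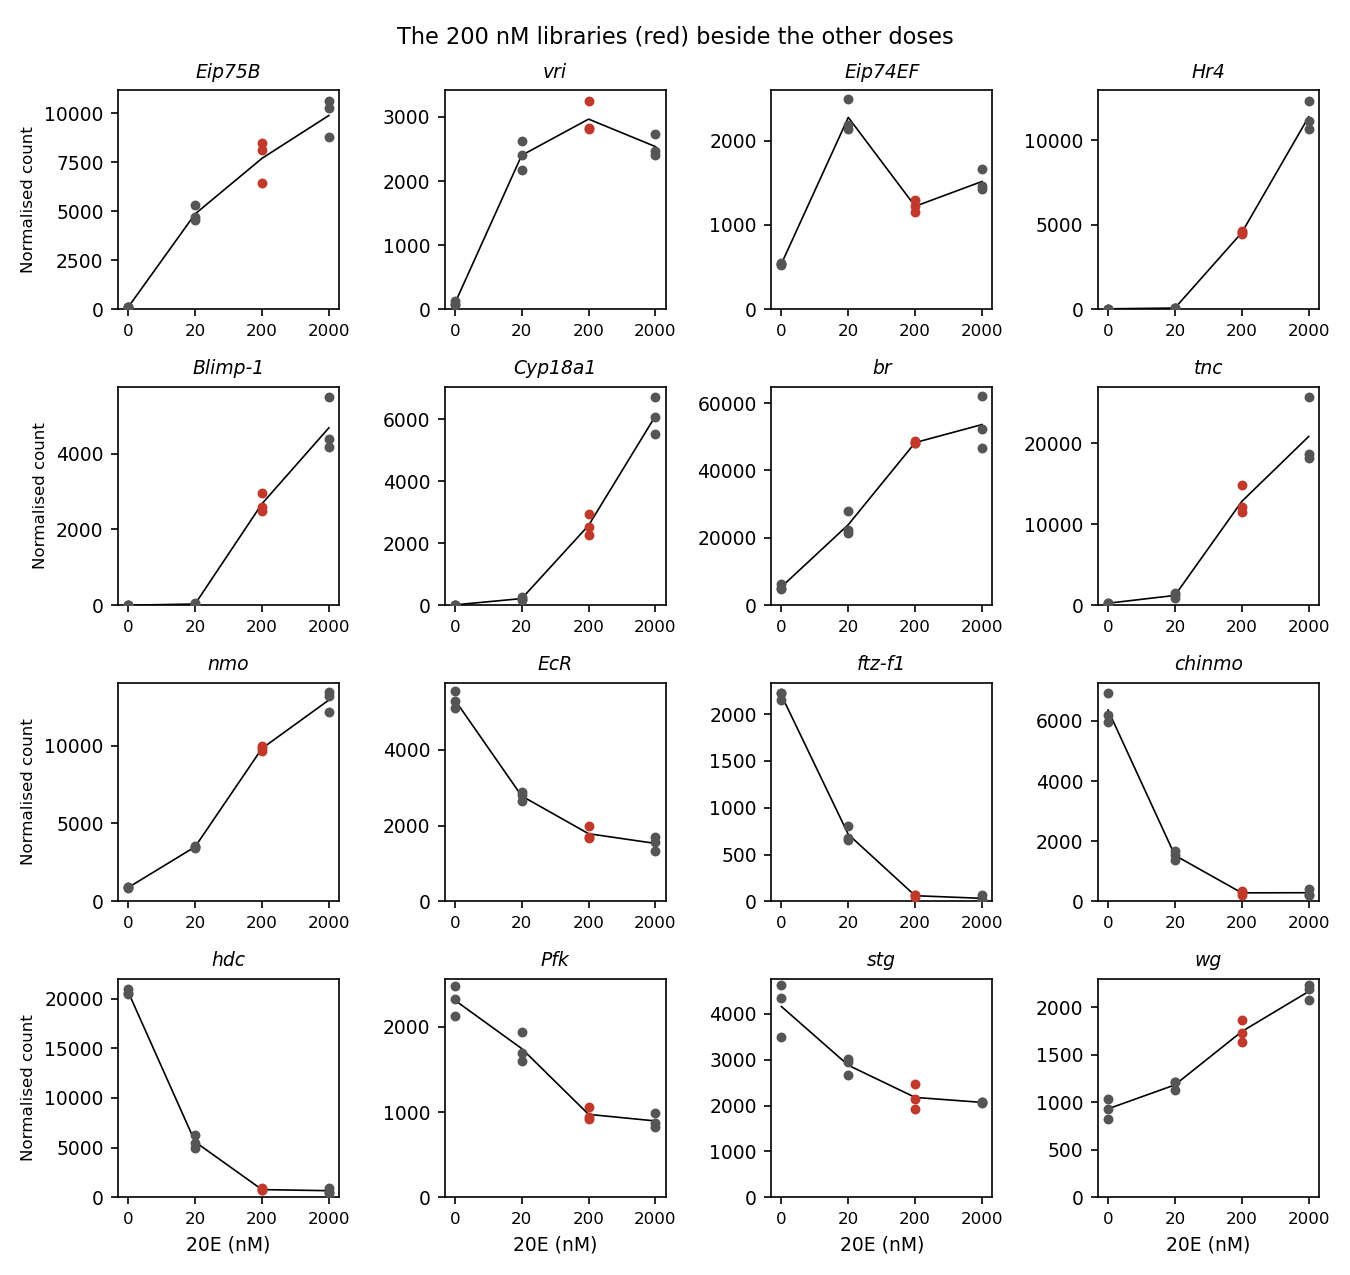
Each panel shows 1 gene, with the normalised count of each library at 0, 20, 200 (red) and 2000 nM 20E, doses evenly spaced, and a line through the means; vertical axes start at 0 and differ between panels. At 200 nM vri and chinmo stand near their level at 2000 nM, Eip74EF stands below its level at 20 nM, and Hr4 and Cyp18a1 average less than at 2000 nM.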

How the data were processed

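RNA of cultured wing discs was sequenced in 12 libraries, 3 at each of 4 doses of 20E, grouped by their titles. The deposited values are normalised counts, a signal made by the authors by dividing gene counts by 1 size factor per library, since all values were whole multiples of 1 step per library within 0.001. The tools named, per the submitters' processing notes, were DESeq2 1.32.0, Subread 2.0.1, SAMtools 1.13 and HISAT2 2.1.0. Genome build, annotation and strand setting: not given in the sources used here. The authors' deposited table of log2 fold changes, test scores and p-values was read but none of its values is reported.

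Genes with at least 10 normalised counts in at least 3 of the 6 libraries at 0 and 200 nM were tested on log2(normalised count + 1) with limma 3.58.1 in R 4.3.3, with a mean-variance trend. The fit held all 12 libraries with 1 mean per dose. Tests were two-sided, with Benjamini-Hochberg adjustment over 8133 genes and a threshold of 0.05. Fold changes are on this scale, which understates changes of weakly expressed genes. Tested on simulated data of 8080 genes, the fit recovered 83.6% of 1.5-fold changes and 100% of 2- and 4-fold changes at 200 against 0 nM. The changed genes were drawn above a minimum level, and their spread was set by a formula, not estimated from these libraries. The recovery therefore does not describe weakly expressed genes or the spread of these libraries. Intervals and floors from reads cover counting error only.

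Up to 12 of the largest rises and falls (with the higher group's mean reaching 50, libraries not overlapping, no CG, CR or non-coding symbols), up to 5 per direction with the smallest adjusted p, up to 4 called members per list plus 2 against its majority, and 15 genes fixed by name were named with library values. Other list members and CG genes in the text were chosen after their values were seen. The members and the 51 lists, which hold 1104 tested genes with 40 in more than one list, were chosen with earlier results of these data known. Gene overlaps and neighbours come from an annotation that may not be the authors'. Alternatives were other pseudocounts, filters, scaling and fits, and leaving out each library.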

Additional observations from a re-analysis of the deposited data

How the results depend on the processing

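At 200 against 0 nM the counts stayed within 1.5 times the reported 823 rises and 883 falls under all 20 alternatives. Leaving out 1 library gave 684 to 857 rises and 702 to 919 falls. Other pseudocounts, filters, scaling, limma-voom and a fit of the 6 libraries alone gave 749 to 839 rises and 824 to 914 falls. Of the 1115 tested genes that were named by rule or belong to a list, 373 were called. In every alternative 285 of these kept the call, 88 lost it in at least 1, and none changed direction. Of the 742 not called, 81 were called in at least 1 alternative. Among these Lsp1gamma changed direction, from 0.06 log2 to -2.09 without 0 nM replicate 2; the cause was not tested.

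With a replicate block there were 978 rises and 1066 falls. Between 0 and 200 nM, deviations of same-numbered libraries correlated at 0.134, -0.143 and 0.0787, and not every library correlated best with its own number. Whether same-numbered libraries shared a batch was not tested, and the titles give only a number. The alternatives for the other doses' counts were chosen after seeing the data. At 2000 against 200 nM limma-voom gave 23 rises, the replicate block 37 rises and 14 falls, and leaving out 1 library 0 to 15 rises and 0 to 4 falls, where the reported counts are 14 and 3; the cause was not tested. At 200 against 20 nM the counts stayed within 1.5 times under each alternative. A pair of count-based tests planned as alternatives was not run, although reads recovered from the normalised counts entered limma-voom, the other scaling and the intervals. Depth limits the weakly expressed genes, whose median SE was 0.244 against 0.0793 among the strongly expressed.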

Other observations

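Genes that changed in the same direction sometimes lay side by side. In 11 places at least 4 tested neighbours in the annotation were all called one way, 3 of them rises and 8 falls. On chromosome arm 3R, hdc, which fell by 4.74 log2, lay beside CG9737 and CG9733, at -2.84 and -1.16, and the ferritin subunit genes Fer1HCH and Fer2LCH, at -0.26 and -0.25. On 3L, the run of the TOR inhibitor gene scyl held CG6175, CG6168 and CG6163 at -1.79, -2.13 and -0.48. The longest run, on 3L, held 6 rises, among them the cuticle protein gene Cpr78E at 1.04, the metal chaperone gene Atox1 at 0.60 and a pair of long non-coding RNAs at 1.80 and 1.72. Whether such runs are more frequent than the share of called genes would give was not tested, and reads across overlapping neighbours cannot be told apart.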
